A study of Mus musculus with 11 samples.

Results

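The 9 genes described here are used to recognise or isolate progenitor cells: the surface proteins Prom1, Cd24a, Thy1, Itga6, Kit, Ly6a and Cd44, and the RNA-binding proteins Msi1 and Msi2. The rule that chose them is a list of names and uses no measured value, although earlier results of these data were known when it was drawn up, and all 9 were found among the 49671 genes of the count table and passed the filter on low counts. RNA was sequenced from sorted adrenal cells of male mice of the strain Nes-GFP, in which green fluorescent protein (GFP) is driven by regulatory elements of the Nestin gene (Nes), whose product is an intermediate filament of neural and other progenitors. Of the 11 libraries, 3 each were of GFP-positive cells of the cortex, GFP-negative cells of the cortex and GFP-positive cells of the medulla, and 2 were of GFP-negative cells of the medulla. In both cortical groups libraries 1 and 2 came from mice of about 3.5 months and library 3 from mice of about 2.5 months. Medullary GFP-positive library 1 and both medullary GFP-negative libraries came from the older mice and medullary GFP-positive libraries 2 and 3 from the younger, so age and gate are partly mixed in the medulla. The reporter was carried by all the mice, adrenals of 6 mice were pooled in 3 groups of 2, and each tube received 180 to 300 cells. No label ties a library to a pool or to mice of its own, so p-values refer to the scatter among libraries, which can be technical in part. If the 2 mice of a pool were of like age, 3 pools are too few to give every library of a group its own pool. Some libraries of a group would then share a pool, since cortical groups each had 2 older libraries and medullary GFP-positive cells 2 younger.

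Prom1 encodes prominin-1 (CD133), a membrane protein of cell protrusions that marks neural and blood stem cells and some endothelial cells. Cd24a and Thy1 encode small glycoproteins anchored to the membrane by a lipid, Thy1 being abundant on neurons and T cells. Itga6 encodes the alpha6 chain of integrin receptors for laminin, a protein of the basement membrane. Cd44 encodes the main receptor for the matrix sugar hyaluronan and is carried by many cells, macrophages among them. Kit encodes the receptor of stem cell factor and marks mast cells, melanocyte precursors and blood progenitors, while Ly6a encodes Sca-1, a marker of mouse blood stem cells that endothelial cells and fibroblasts also carry. Msi1 and Msi2 encode the Musashi proteins, which bind target mRNAs through a pair of RNA recognition motifs and regulate their translation, and which are known from neural and blood progenitors.

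Several of these genes have close relatives in sequence, and 3 pairs are shown. Itga6 and Ly6a each share stretches with a relative to which their reads could be assigned, and Msi1 and Msi2 are shown because they are alike in a conserved domain but share no window of 50 bases. Capitals mark bases that differ within a pair, and the sequences are 60 bases of the transcripts of GENCODE M21 (build GRCm38, the assembly of mm10). Itga6 lies at chr2:71745616-71858416 on the plus strand, and its coding bases 2296 to 2355 are identical to the start of Gm29397, a processed pseudogene at chr9:92976226-92976558.
Itga6: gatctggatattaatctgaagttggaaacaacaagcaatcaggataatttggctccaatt
Gm29397: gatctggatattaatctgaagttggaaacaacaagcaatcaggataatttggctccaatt
Ly6a, at chr15:74994877-74998031 on the minus strand, and its neighbour Ly6c1, at chr15:75044018-75048830, differ at 2 of the first 60 bases of their coding sequences.
Ly6a: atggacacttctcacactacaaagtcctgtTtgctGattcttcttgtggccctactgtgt
Ly6c1: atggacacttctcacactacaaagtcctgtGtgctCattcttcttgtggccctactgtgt
The Musashi genes, at chr5:115429599-115455698 (Msi1) and chr11:88339382-88718513 (Msi2), differ at 2 of 60 bases in coding bases 415 to 474 of Msi1 and 418 to 477 of Msi2, a stretch that encodes a section of the second RNA recognition motif.
Msi1: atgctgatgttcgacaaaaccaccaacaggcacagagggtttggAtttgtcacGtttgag
Msi2: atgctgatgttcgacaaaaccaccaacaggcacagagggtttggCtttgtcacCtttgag

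Among all windows of 50 bases in the transcripts of each gene, none of Thy1, Msi1, Msi2, Kit and Cd44 occurred in another gene. Of 1297 windows of Ly6a, 246 (19.0%) were shared, 195 of them with Ly6c1. For Itga6 the share was 481 of 9063 windows (5.31%), 277 of them with Gm29397. Cd24a shared 69 of 2510 windows (2.75%) with the gene Gm6212. Prom1 shared 385 of 7551 windows (5.10%), 314 of them with Gm16401, a gene on the opposite strand that overlaps its exons and was given 1 count in all 11 libraries. Library preparation did not mark the strand, so reads of such a pair cannot be told apart.

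Total counts lay between 18500690 and 29204212 per library, and 3 counts correspond to 0.103 to 0.162 CPM, the counts scaled to library size. The gate held in both tissues, since Nes itself was higher in GFP-positive cells by 2.80 (SE 0.391) on the log2 scale in the cortex and by 2.37 (SE 0.443) in the medulla (edgeR, adjusted p = 0.00136 and 0.00406). Steroid cell transcripts, which mark the cortex, were present in the medullary libraries too, with a summed level of 23970 to 42560 CPM in medullary GFP-positive cells and 9104 to 16870 CPM in medullary GFP-negative cells over 12 genes. Single libraries stood apart in their cell type markers. Cortical GFP-positive library 1 held 812 CPM of red cell transcripts, against at most 2.12 CPM in the others, and 173 CPM of chromaffin transcripts, against 12.5 and 18.6 CPM in the other cortical GFP-positive libraries. Medullary GFP-negative library 2 held 1211 CPM over 16 endothelial genes, against 110 to 396 CPM in the other 10 libraries.

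With edgeR, 2 of the 9 genes passed the test between the gates in each tissue, a share near that of all genes. In the cortex 2 of 9 passed between GFP-positive and GFP-negative cells, Ly6a being higher and Itga6 lower, beside 14.7% of the 20893 genes tested (7.14% higher and 7.59% lower). In the medulla 2 of 9 passed, Itga6 and Cd44, both lower in GFP-positive cells, beside 21.4% of genes (10.2% higher and 11.1% lower). DESeq2 was given all 34475 genes with a count, a wider set than the 20893. It called 5 of 9 in the cortex and 6 of 9 in the medulla, beside 4578 and 5848 calls over all genes. DESeq2 by default gives no adjusted p to genes of low mean count, so the 34475 are not the set those calls came from. All 9 genes had passed the filter on low counts, which many of the 34475 had not, so the shares are not compared. With edgeR, Itga6 alone passed in both tissues, and it was lower in both, as were 5.28% of genes, while none was higher in both, as were 4.26% of genes. Averaged over both tissues, 5 of 9 passed, with Prom1, Msi1 and Msi2 higher and Itga6 and Cd44 lower, beside 30.0% of genes (15.2% higher and 14.9% lower). Changes are edgeR log2 differences, and a gene passed at an adjusted p below 0.05. The median gene moved by 0.03 in the cortex and by 0.09 in the medulla.

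**Figure D1:**
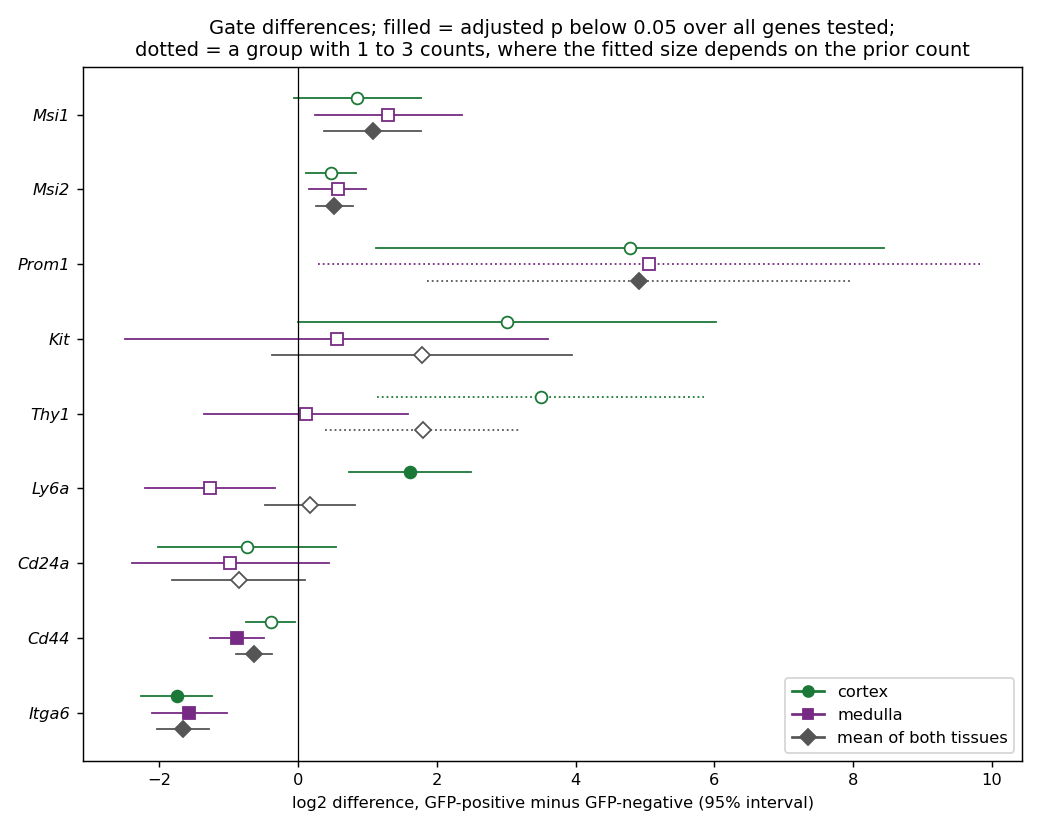
Log2 difference, GFP-positive minus GFP-negative, of each gene with its 95% interval in the cortex (circles), in the medulla (squares) and averaged over both (diamonds). Filled symbols passed the test over all genes, and dotted lines mark genes with 1 to 3 counts in a group. Msi1 and Msi2 lie to the right of 0 in both tissues, Itga6 and Cd44 to the left, and Ly6a on opposite sides.

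Itga6 showed the clearest difference between the gates. It had 91.2, 106 and 107 CPM in cortical GFP-positive libraries 1 to 3, against 380, 319 and 324 CPM in cortical GFP-negative libraries 1 to 3. In the medulla it had 51.6, 80.1 and 39.2 CPM in GFP-positive cells, against 160 and 178 CPM in GFP-negative cells. Every GFP-positive library of a tissue thus lay below every GFP-negative library of that tissue. Itga6 fell by 1.75 (SE 0.227) on the log2 scale in cortical GFP-positive cells, to 0.297 of the GFP-negative level (adjusted p = 0.000935). In medullary GFP-positive cells it fell by 1.57 (SE 0.245), to 0.338 of the GFP-negative level (adjusted p = 0.00153). The 2 gate differences did not differ detectably, with a difference of -0.19 and a 95% interval of -0.93 to 0.55 (adjusted p = 0.852). Between tissues the cortex was higher in both gates, by 0.83 (SE 0.223) in GFP-positive cells and by 1.01 (SE 0.255) in GFP-negative cells (edgeR, adjusted p = 0.032 and 0.0215). These calls were lost in 6 of 19 alternatives for GFP-positive cells, age as a term among them (adjusted p = 0.0531, over a range of 0.00316 to 0.0964), and in 3 of 19 for GFP-negative cells (range 0.00284 to 0.0974). The pseudogene Gm29397 averaged 1.45 CPM in cortical GFP-positive, 7.06 in cortical GFP-negative, 0.901 in medullary GFP-positive and 2.23 in medullary GFP-negative libraries, the same order as Itga6, and was the gene whose pattern over the 11 libraries was most like it.

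Cd44 was lower in medullary GFP-positive cells, where its values of 67.6, 68.5 and 54.8 CPM all lay below the 120 and 114 CPM of medullary GFP-negative cells. The fall was 0.88 (SE 0.174) on the log2 scale, to 0.544 of the GFP-negative level (edgeR, adjusted p = 0.00552). In the cortex the levels overlapped, with 35.5, 41.3 and 45.0 CPM in GFP-positive cells against 55.2, 44.1 and 60.8 CPM in GFP-negative cells, and the difference of -0.39 (95% interval -0.75 to -0.04) did not pass (adjusted p = 0.126). Cd44 was also lower in the cortex than in the medulla, by 0.65 (SE 0.159) between GFP-positive cells and by 1.13 (SE 0.174) between GFP-negative cells as the size of the log2 difference (adjusted p = 0.0216 and 0.00267). Its highest levels, in medullary GFP-negative cells, stood in the libraries with the most macrophage transcripts. Summed over 14 macrophage genes these were 270 to 637 CPM in medullary GFP-positive cells against 12160 and 14030 CPM in medullary GFP-negative cells, and 58.6 to 232 CPM in cortical GFP-positive cells against 2443 to 4183 CPM in cortical GFP-negative cells. Elsewhere the orders differed, since Cd44 averaged 63.6 CPM in medullary GFP-positive cells and 53.4 CPM in cortical GFP-negative cells, which held more macrophage transcripts. Of the 14 genes, 13 passed as lower in cortical GFP-positive cells and 14 in medullary GFP-positive cells, and none of the 14 was without a count in any group. Their part in the values of Cd44 was not tested, and in bulk samples fewer cells of a type and less RNA per cell cannot be told apart.

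The gate difference of Ly6a differed between the 2 tissues. Cortical GFP-positive libraries had 89.3, 64.7 and 40.0 CPM, all above the 20.0, 29.5 and 13.7 CPM of cortical GFP-negative libraries. Medullary GFP-positive libraries had 36.9, 48.5 and 43.2 CPM, all below the 60.7 and 146 CPM of medullary GFP-negative libraries. In the cortex Ly6a rose by 1.62 (SE 0.396) on the log2 scale, 3.07-fold (adjusted p = 0.0219), while the medullary difference of -1.27 (SE 0.424) did not pass (edgeR, adjusted p = 0.0575). The difference between the gate effects was 2.89 (SE 0.578, adjusted p = 0.0401), and among the 9 genes only Ly6a passed this test, beside 1.61% of all genes (0.857% with the higher gate difference in the cortex and 0.756% with the lower). Between GFP-negative cells Ly6a was lower in the cortex than in the medulla by 2.30 as the size of the log2 difference (SE 0.43, adjusted p = 0.00639), whereas between GFP-positive cells the difference was 0.59 (95% interval -0.27 to 1.45, adjusted p = 0.359).

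The cortical rise of Ly6a no longer passed without cortical GFP-positive library 1, the library with red cell transcripts (log2 difference 1.30, adjusted p = 0.0737), nor without library 2 of that group (1.62, adjusted p = 0.0542) nor without library 1 or 3 of the GFP-negative cortex (1.58 and 1.39, adjusted p = 0.0757 and 0.0807). Over all 19 alternatives it lay between 1.30 and 1.94, with adjusted p between 0.00082 and 0.0807. The difference between tissues passed in 6 of 18 alternatives, with log2 values of 2.12 to 3.38, and without medullary GFP-negative library 2 it was 2.12 (adjusted p = 0.148, over a range of 0.000128 to 0.148). That library had both the highest Ly6a level and the highest endothelial sum. In cortical GFP-positive cells the orders differed, since library 1 had the highest Ly6a level, 89.3 CPM, and the lowest endothelial sum, 110 CPM. Summed endothelial levels were 110 to 376 CPM in cortical GFP-positive cells, 125 to 269 CPM in cortical GFP-negative cells, 280 to 396 CPM in medullary GFP-positive cells, and 367 and 1211 CPM in medullary GFP-negative cells. None of the 16 endothelial genes passed in the gate comparison of either tissue or was without a count in a group. Their median gate difference had the sign of Ly6a in both tissues, 0.54 in the cortex and -1.10 in the medulla, with a median of 1.62 for the difference between tissues, which none passed. Between GFP-negative cells, where Ly6a was lower in the cortex, 5 of the 16 passed as lower and none as higher (median -1.92), and between GFP-positive cells 1 passed as higher and none as lower (median -0.36). Fibroblast and capsule genes had the same signs, with medians of 2.115 in the cortex and -1.88 in the medulla. Of 9 of them tested, 1 was higher and 1 lower in the cortex, beside 7.14% and 7.59% of all genes. In the medulla 1 was higher and 4 were lower, beside 10.2% and 11.1%. The difference between tissues passed for 1 as higher and none as lower (median 1.26). The part of either cell type in the Ly6a values was not tested. Ly6c1, named for the sequence it shares, differed by 1.30 in the cortex and by -1.12 in the medulla (adjusted p = 0.133 and 0.201).

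**Figure D2:**
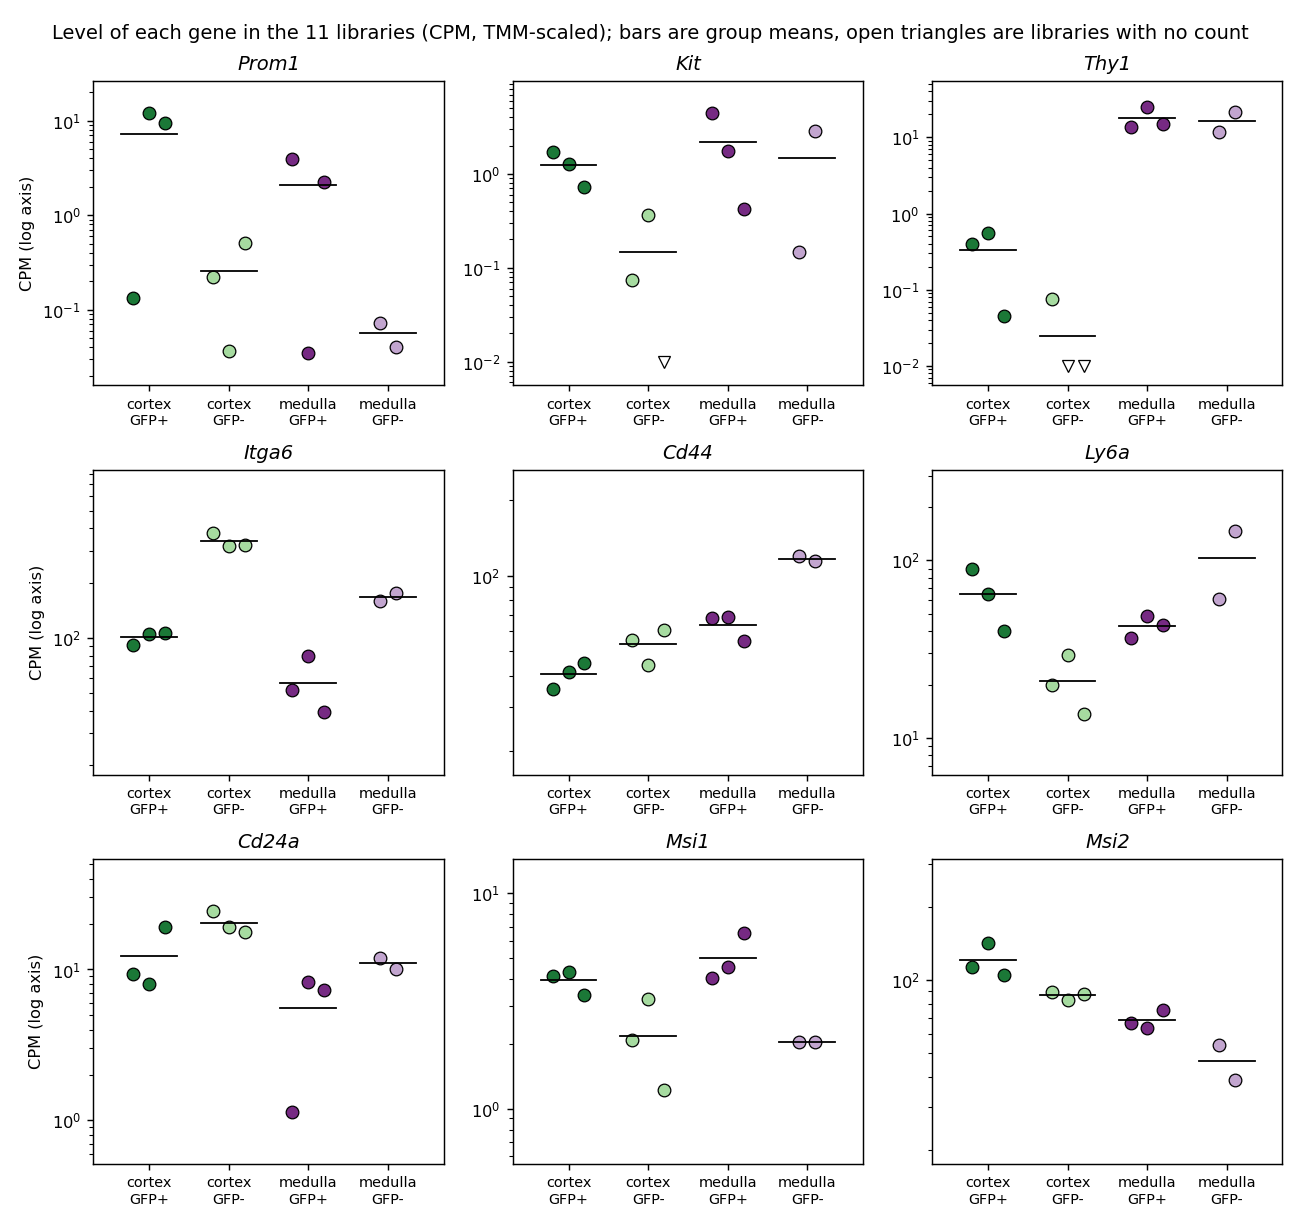
Level of each gene in CPM (log axis) in every library of the 4 groups, with bars at group means and open triangles for libraries with no count. Itga6 separates the gates in both tissues, Thy1 separates the tissues, and Prom1 and Kit vary widely within groups, as in the 0.134 to 11.9 CPM of Prom1 in cortical GFP-positive libraries.

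Prom1 was detected mainly in GFP-positive cells, but not in all of their libraries. Its levels were 0.134, 11.9 and 9.41 CPM in cortical GFP-positive libraries 1 to 3, against 0.224, 0.0367 and 0.512 CPM in cortical GFP-negative libraries. In the medulla it had 3.97, 0.0348 and 2.25 CPM in GFP-positive cells against 0.0731 and 0.0406 CPM in GFP-negative cells. Thus 2 of 3 GFP-positive libraries were high in each tissue, and the remaining library lay at the level of GFP-negative cells. In the cortex the log2 difference of 4.78 (SE 1.65) did not pass (adjusted p = 0.0801), and without cortical GFP-positive library 1 it was 5.34 and passed (adjusted p = 0.0372, over a range of 0.00461 to 0.353 in 19 alternatives). The medulla had 121 counts in GFP-positive and 3 in GFP-negative cells, a CPM ratio of 31.2 with an exact 95% counting interval of 10.4 to 153 (edgeR, adjusted p = 0.124). Amplified reads carry no molecular identifiers here and are not independent, so such intervals cover counting error only.

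Averaged over both tissues, Prom1 passed (adjusted p = 0.0218). The fitted log2 difference of 4.92 (SE 1.38) depends on the prior count, because a group held 3 counts. The call was lost without medullary GFP-negative library 1 (adjusted p = 0.0923) or library 2 (adjusted p = 0.0981), and with limma-voom (adjusted p = 0.302), over a range of 5.17e-05 to 0.302 in 18 alternatives. Among cortical GFP-positive libraries the order of Prom1 was that of the endothelial sums, 110, 376 and 221 CPM in libraries 1 to 3. In medullary GFP-positive cells the library with the least Prom1, library 2, had the lowest endothelial sum, 280 CPM against 371 and 396 CPM in libraries 1 and 3. The order of libraries 1 and 3 was the reverse, since library 1 had more Prom1, 3.97 against 2.25 CPM. Medullary GFP-negative library 2 had the highest endothelial sum, 1211 CPM, and 0.0406 CPM of Prom1, and the relation was not tested. A gene of endothelial tight junctions, Cldn5, was the second most like Prom1 over the 11 libraries, with group means of 8.44, 1.88, 3.50 and 2.32 CPM in cortical GFP-positive, cortical GFP-negative, medullary GFP-positive and medullary GFP-negative cells. It was the one endothelial gene of 16 with a positive gate difference in the medulla (0.59, adjusted p = 0.745), where the median of the 16 was -1.10, opposite in sign to Prom1. In the cortex their median was 0.54.

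Thy1 differed between the tissues and passed in neither gate comparison. It had 13.6, 24.9 and 14.9 CPM in medullary GFP-positive libraries and 11.6 and 21.5 CPM in medullary GFP-negative libraries, and the groups overlapped (log2 difference 0.11, 95% interval -1.36 to 1.58, edgeR adjusted p = 0.934). In the cortex the GFP-positive libraries had 0.401, 0.558 and 0.0450 CPM, and GFP-negative libraries 0.0747, 0 and 0 CPM. That is 23 counts against 2, a CPM ratio of 13.4 with an exact 95% counting interval of 3.32 to 118 (adjusted p = 0.0524). Between GFP-positive cells Thy1 was lower in the cortex by 5.70 as the size of the log2 difference (SE 0.757), 52.2-fold (adjusted p = 0.00117). Between GFP-negative cells there were 2 counts in the cortex and 845 in the medulla, a CPM ratio of medulla over cortex of 645 with an interval of 178 to 5337 (adjusted p = 0.000632). The medullary libraries also held the chromaffin transcripts, 6908 to 12260 CPM in GFP-positive cells and 5920 and 9446 CPM in GFP-negative cells, against 12.5 to 173 CPM and 0.945 to 3.96 CPM in the cortex, and Gata3, a transcription factor gene of chromaffin cells, was among the 2 genes most like Thy1. Lymphocytes, which carry Thy1 as well, left few reads. Their 12 genes summed to 1.83 to 10.4 CPM in medullary GFP-positive and 33.0 and 50.6 CPM in medullary GFP-negative cells. In the cortex they summed to 2.02 to 3.74 CPM in GFP-positive and 8.27 to 15.5 CPM in GFP-negative cells. Cd4 alone averaged 30.0 CPM in medullary GFP-negative cells, and of the 12 only Cd2 had no count in any group. Of 5 tested, none passed in the cortex. In medullary GFP-positive cells Il7r and Cd3d passed as lower and Trac as higher (edgeR, adjusted p = 0.0237, 0.0358 and 0.0422), beside 11.1% and 10.2% of all genes. The part of either cell type was not tested.

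Kit was scarce in all groups. Cortical GFP-positive libraries had 1.69, 1.29 and 0.721 CPM, above the 0.0747, 0.367 and 0 CPM of cortical GFP-negative libraries, and the log2 difference of 3.01 (SE 1.36) did not pass (edgeR, adjusted p = 0.168). Medullary libraries were spread over the same range in both gates, with 4.44, 1.74 and 0.418 CPM in GFP-positive cells against 0.146 and 2.84 CPM in GFP-negative cells (log2 difference 0.56, 95% interval -2.49 to 3.60, adjusted p = 0.82). The mast cell proteases Tpsb2 and Cma1 and the IgE receptor gene Fcer1a had no count in any of the 4 groups. Of the 9 mast cell genes listed, 3 were tested. Among the untested, Mcpt4 had counts only in medullary GFP-negative cells and Tpsab1 only in cortical GFP-negative cells. Ms4a2 had counts in every group but medullary GFP-negative cells. In the cortex the protease Cpa3 was lower, with 1 count in GFP-positive cells against 567 in GFP-negative cells (adjusted p = 0.00669), while Hdc and Gata2 differed by 0.79 and 1.91, the direction of Kit, and did not pass (adjusted p = 0.68 and 0.302). In the medulla none of the 3 passed, with a median of -0.77. Their part in the Kit values was not tested.

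Cd24a passed in no comparison. It had 9.35, 8.03 and 19.2 CPM in cortical GFP-positive libraries against 24.4, 19.0 and 17.7 CPM in cortical GFP-negative libraries, and these overlapped (log2 difference -0.74, 95% interval -2.02 to 0.54, edgeR adjusted p = 0.433). In the medulla the 1.14, 8.31 and 7.26 CPM of GFP-positive cells lay below the 12.0 and 10.0 CPM of GFP-negative cells (-0.98, 95% interval -2.40 to 0.44, adjusted p = 0.316). With the age of the mice as a term, the mean over both tissues was -1.47 and passed (adjusted p = 0.036, over a range of 0.036 to 0.302 in 18 alternatives).

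Both Musashi genes were higher in GFP-positive cells when the tissues were averaged. Msi1 had 4.14, 4.30 and 3.38 CPM in cortical GFP-positive libraries against 2.09, 3.23 and 1.22 CPM in cortical GFP-negative libraries. In the medulla it had 4.03, 4.52 and 6.53 CPM in GFP-positive cells against 2.05 and 2.03 CPM in GFP-negative cells. No library of one gate overlapped the other gate within a tissue. The differences of 0.85 (SE 0.412) in the cortex and 1.30 (SE 0.477) in the medulla did not pass singly (adjusted p = 0.198 and 0.0793), and the mean over both tissues, 1.07 (SE 0.315), did (adjusted p = 0.0265). That call was lost in 7 of 18 alternatives, with adjusted p over all of them between 0.0043 and 0.0769. They were the fit without a filter (0.0665) and the fits without library 1 (0.0561) or 2 (0.0594) of cortical GFP-positive cells, library 1 of cortical GFP-negative cells (0.0616), medullary GFP-positive library 3 (0.0623), or medullary GFP-negative library 1 (0.0769) or 2 (0.076).

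Msi2 was measured far more deeply, with 2429 to 8204 counts per group. Cortical GFP-positive libraries had 114, 143 and 105 CPM, above the 89.1, 83.2 and 87.4 CPM of cortical GFP-negative libraries. Medullary GFP-positive libraries had 67.0, 63.8 and 75.4 CPM, above the 53.9 and 38.7 CPM of medullary GFP-negative libraries. The differences of 0.48 (SE 0.161) and 0.57 (SE 0.183) did not pass singly (adjusted p = 0.0753 and 0.0505), and their mean of 0.52 (SE 0.122), a rise of 1.44-fold, passed (edgeR, adjusted p = 0.00899) and did so in all 18 alternatives. Msi2 was also higher in the cortex than in the medulla, by 0.81 (SE 0.162) between GFP-positive cells and by 0.90 (SE 0.185) between GFP-negative cells (adjusted p = 0.00874 and 0.00934). For Msi1 the same differences were -0.35 (95% interval -1.26 to 0.56) and 0.10 (95% interval -0.93 to 1.12), and neither passed (adjusted p = 0.64 and 0.919).

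Across tissues, 4 of 9 genes passed between GFP-positive cells, with Itga6 and Msi2 higher and Thy1 and Cd44 lower in the cortex, beside 15.5% of genes (6.04% higher and 9.45% lower). Between GFP-negative cells 5 of 9 passed, Ly6a being lower in addition, beside 18.6% of genes (8.06% higher and 10.6% lower). The comparisons share libraries, so their results are not independent. In the cortex the libraries of the gates did not overlap for 5 of 9 genes, 4 higher and 1 lower in GFP-positive cells, where this held for 38.2% of all genes (18.8% higher and 19.4% lower). In the medulla they did not for 6 of 9, 2 higher and 4 lower, beside 48.1% (25.6% higher and 22.5% lower). Between the tissues GFP-positive libraries did not overlap for 4 of 9 genes, 2 higher and 2 lower in the cortex, beside 34.5% (16.0% higher and 18.5% lower), and GFP-negative libraries for 6 of 9, 3 higher and 3 lower, beside 49.5% (23.4% higher and 26.1% lower).

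Per kilobase of exon length, Ly6a had the highest mean level of the 9 genes in 3 of the 4 groups, with 53.7 CPM per kb in cortical GFP-positive, 35.6 in medullary GFP-positive and 85.9 in medullary GFP-negative cells. In cortical GFP-negative cells Itga6 was highest, with 37.8 CPM per kb, against 17.5 for Ly6a. Msi2 and Itga6 followed in cortical GFP-positive cells with 11.6 and 11.2 CPM per kb, which differed by less than the spread between libraries. Msi2 stood at 11.6, 8.32 and 4.45 CPM per kb and Msi1 at 0.679, 0.376 and 0.351 CPM per kb in cortical GFP-positive, cortical GFP-negative and medullary GFP-negative cells. In medullary GFP-positive cells, where Msi1 was highest, Msi2 stood at 6.605 and Msi1 at 0.866 CPM per kb. Thy1 and Kit were lowest in both cortical groups, with 0.112 and 0.139 CPM per kb in GFP-positive and 0.00831 and 0.0165 CPM per kb in GFP-negative cells.

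The genes whose pattern was most like each of the 9 were found by the root mean square difference over the 11 libraries on log2(CPM + 0.5), centred on each gene's mean. For Itga6 they were Gm29397 and Itm2c, at distances of 0.256 and 0.294, where the median over all genes tested was 1.17. Msi2 was nearest to Ndufc1 (0.133) and Gm16418 (0.137), beside a median of 0.715, and Msi1 to Herc2 (0.214) and Scap (0.227), beside 0.747. Cd44 was nearest to Dedd2 and Abi1 (0.159 and 0.172), beside 0.762, and Ly6a to C030015A19Rik and Dusp5 (0.389 and 0.412), beside 1.05. Thy1 was nearest to Gdap1 and Gata3 (0.42 and 0.426), beside 2.43, the largest median of the 9, so these distances are small for Thy1. Cd24a was nearest to 4930412C18Rik and Cygb (0.44 and 0.445), beside 1.16, and Kit to Ablim1 and D130019J16Rik (0.518 and 0.542), beside 1.16. Prom1 had the widest distances, 0.793 to RP24-131G14.13 and 0.915 to Cldn5, beside 1.76. This is a description of 11 libraries that share 4 groups, and it carries no test.

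Of 22 laminin chains, partner integrins and adaptors of Itga6 that were tested, 11 passed as higher and 2 as lower in medullary GFP-positive cells, with a median log2 difference of 1.182 where the median of all genes was 0.09. In the cortex 2 passed as higher and none as lower, with a median of 0.06 beside 0.03 for all genes. Of all genes, 7.14% passed as higher and 7.59% as lower in the cortex, and 10.2% and 11.1% in the medulla. The same shares and medians of all genes stand beside each of the lists that follow. The difference between the gate effects of the tissues itself passed for 2 of the 22, with 1 higher and 1 lower (median -1.04 beside -0.02 for all genes). Ptk2, the focal adhesion kinase, averaged 157 ± 78.1 CPM in medullary GFP-positive and 25.7 ± 3.26 CPM in medullary GFP-negative cells (SD, n = 3 and 2), a rise of 2.61 (SE 0.364, edgeR adjusted p = 0.000847). The tetraspanin Cd9 rose by 1.43 (SE 0.234) in the same cells, and talin 1 (Tln1), which links integrins to actin, fell by 0.94 (SE 0.147, adjusted p = 0.00196 and 0.00152). Cd81, a tetraspanin and the most abundant gene of the list, averaged 1314 ± 303 CPM in medullary GFP-positive and 1834 ± 338 CPM in medullary GFP-negative cells and did not pass (adjusted p = 0.0771). Schwann cells and glia, which make laminin, were represented by 12 genes that summed to 2381 to 5555 CPM in medullary GFP-positive cells and 50.6 and 50.7 CPM in medullary GFP-negative cells. Their part in these differences was not tested.

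Hyaluronan and Cd44 partners were divided. Of 16 tested, 3 were higher and 2 lower in GFP-positive cells of the cortex, and 3 were higher and 4 lower in GFP-positive cells of the medulla, with medians of -0.15 in both (-0.04 in the cortex with groups without counts set at 3 counts). Vcan, the gene of the hyaluronan-binding proteoglycan versican, rose by 3.11 (SE 0.718) in the cortex and by 7.51 (SE 0.996) in the medulla (edgeR, adjusted p = 0.0168 and 0.000634). Tnfaip6, whose product TSG-6 cross-links hyaluronan, averaged 10.6 ± 4.87 CPM in medullary GFP-positive cells and had no count in medullary GFP-negative cells, which puts it at least 198-fold higher when 3 counts stand for that group as a whole. It rose by 3.94 (SE 0.924) in the cortex (adjusted p = 0.0212). Moesin (Msn), which ties Cd44 to actin, fell by 0.70 (SE 0.165) in cortical and by 1.27 (SE 0.181) in medullary GFP-positive cells (adjusted p = 0.0191 and 0.000951).

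Among 17 genes of Kit signalling, none was higher and 4 were lower in GFP-positive cells of the cortex (median -0.28), and 2 were higher and 5 lower in GFP-positive cells of the medulla (median -0.53). The genes with the lowest adjusted p were the kinase Lyn and the phosphatase Ptpn6, both used widely in white blood cells. Lyn averaged 16.0 ± 6.05 CPM in cortical GFP-positive against 89.5 ± 27.2 CPM in cortical GFP-negative cells, and 22.5 ± 5.84 CPM in medullary GFP-positive against 331 ± 27.3 CPM in medullary GFP-negative cells. It fell by 2.48 (SE 0.313) in the cortex and fell by 3.88 (SE 0.345) in the medulla on the log2 scale (edgeR, adjusted p = 0.000846 and 8.02e-05). Ptpn6 fell by 4.37 (SE 0.62) in the cortex and fell by 5.17 (SE 0.653) in the medulla (adjusted p = 0.00146 and 0.000476). The adaptor Sh2b3 fell by 2.09 (SE 0.276) in the medulla (adjusted p = 0.000623) and differed by -0.28 in the cortex (adjusted p = 0.5). The macrophage sums given with Cd44 moved in the same direction, and their part was not tested.

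Of 15 other genes of the Ly6 and uPAR family, 1 was higher and 2 were lower in GFP-positive cells of the cortex (median 0.37, or 0.23 with groups without counts set at 3 counts), and 2 were higher and 4 lower in GFP-positive cells of the medulla (median -1.12). Ly6d, the most abundant, averaged 1529 ± 91.6 CPM in cortical GFP-positive against 4790 ± 1394 CPM in cortical GFP-negative cells, and 183 ± 86.3 CPM in medullary GFP-positive against 1813 ± 979 CPM in medullary GFP-negative cells. It fell by 1.65 (SE 0.377) in the cortex and fell by 3.31 (SE 0.422) in the medulla (edgeR, adjusted p = 0.0162 and 0.000501). Cd59a, an inhibitor of complement, rose by 1.183 (SE 0.216) in the cortex and by 2.74 (SE 0.267) in the medulla (adjusted p = 0.00527 and 0.000127). Plaur, the urokinase receptor, fell by 1.49 (SE 0.401) in the cortex and fell by 4.46 (SE 0.458) in the medulla (adjusted p = 0.0326 and 0.000161). Ly6e fell by 1.96 (SE 0.172) in the medulla (adjusted p = 7.81e-05) and differed by 0.12 in the cortex (adjusted p = 0.658).

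Musashi target mRNAs moved both ways, with 1 of 13 higher and 2 lower in GFP-positive cells of the cortex (median -0.18), and 2 higher and 4 lower in GFP-positive cells of the medulla (median 0.04). Tgfbr1, a receptor of TGF-beta, fell by 2.30 (SE 0.233) in the cortex and by 3.58 (SE 0.256) in the medulla (edgeR, adjusted p = 0.000306 and 3.59e-05). In the medulla the tetraspanin gene Tspan3 rose by 1.59 (SE 0.265) and the transcription factor gene Ikzf2 by 1.66 (SE 0.346, adjusted p = 0.00218 and 0.00723). In the cortex these differed by -0.45 and 0.61 and did not pass (adjusted p = 0.209 and 0.197). Such mRNA levels do not measure translation, the step at which Musashi proteins are known to act.

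Partners of CD24 and THY1 and relatives of prominin-1 gave 1 of 9 higher and 2 lower in the cortex (median -0.25) and 1 higher and 4 lower in the medulla (median -0.23). The integrin chain Itgb2 of white blood cells fell by 4.38 (SE 0.379) in the cortex and fell by 4.93 (SE 0.392) in the medulla (edgeR, adjusted p = 0.000163 and 4.88e-05). Ttyh1, a membrane protein gene of neural cells, rose by 3.89 (SE 0.504) in the cortex and by 6.17 (SE 0.602) in the medulla (adjusted p = 0.000934 and 0.000127). Itgb5 fell by 1.98 (SE 0.206) in the medulla (adjusted p = 0.00017), and Sdc4, the most abundant of the list, differed by 0.54 and -0.23 without passing (adjusted p = 0.293 and 0.702).

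Other progenitor markers gave calls in both tissues, and no test set them against the 9 genes. Of 22 tested, 8 were higher and 2 lower in GFP-positive cells of the cortex (median 1.58), beside 7.14% and 7.59% of all genes. In GFP-positive cells of the medulla 8 were higher and 3 lower (median 0.67), beside 10.2% and 11.1% of all genes. Nes, whose reporter set the gate, is among those higher in both tissues. Sox10, a transcription factor gene of neural crest and glia, averaged 12.8 ± 4.32 CPM in cortical GFP-positive and 0.11 ± 0.191 CPM in cortical GFP-negative cells, and 96.0 ± 54.1 CPM in medullary GFP-positive cells with no count in medullary GFP-negative cells. It rose by 6.76 (SE 0.848) in the cortex, and with 3 counts standing for the medullary GFP-negative group as a whole it was at least 1816-fold higher in the medulla (edgeR, adjusted p = 0.00113 and 0.00028). Foxd3, another neural crest factor, had 229 counts in cortical GFP-positive against 2 in cortical GFP-negative cells, a CPM ratio of 134 with an exact 95% counting interval of 36.6 to 1112. Vcam1, an adhesion protein of mesenchymal progenitors and macrophages, fell by 3.29 (SE 0.309) in the cortex and fell by 4.17 (SE 0.333) in the medulla (adjusted p = 0.000205 and 4.92e-05). Nes, Sox10, Foxd3 and Ngfr of this list are the reporter's gene or markers of glia.

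**Figure D3:**
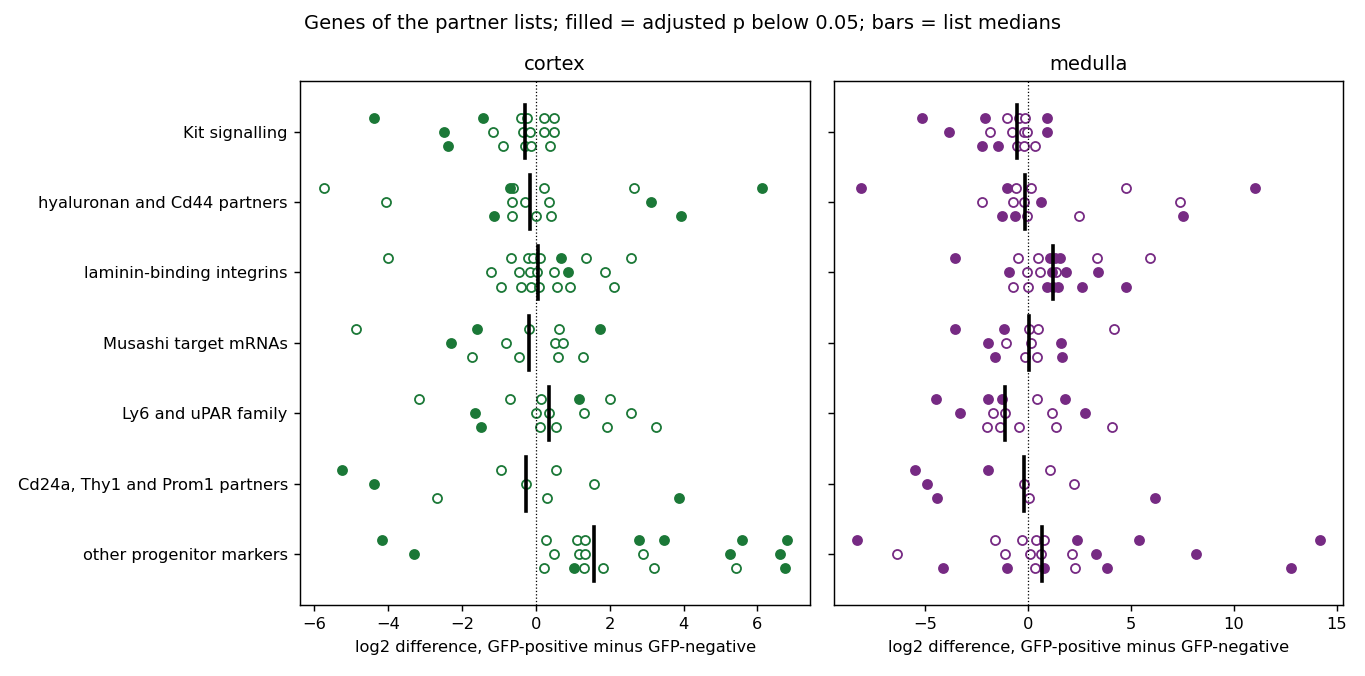
Log2 difference, GFP-positive minus GFP-negative, of every gene tested in 7 lists of partners and other markers, in the cortex (left) and the medulla (right), with filled points for an adjusted p below 0.05 and bars at list medians. Laminin-binding integrin genes lie mostly to the right of 0 in the medulla (median 1.182) and around 0 in the cortex (median 0.06). Some points far from 0 are fitted values of genes with few or no counts in a group, and these depend on the prior count. Others have ample counts in both groups, such as Ptpn6 in the medulla (-5.17, with 657 counts in GFP-positive and 17450 in GFP-negative cells).

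**Figure D4:**
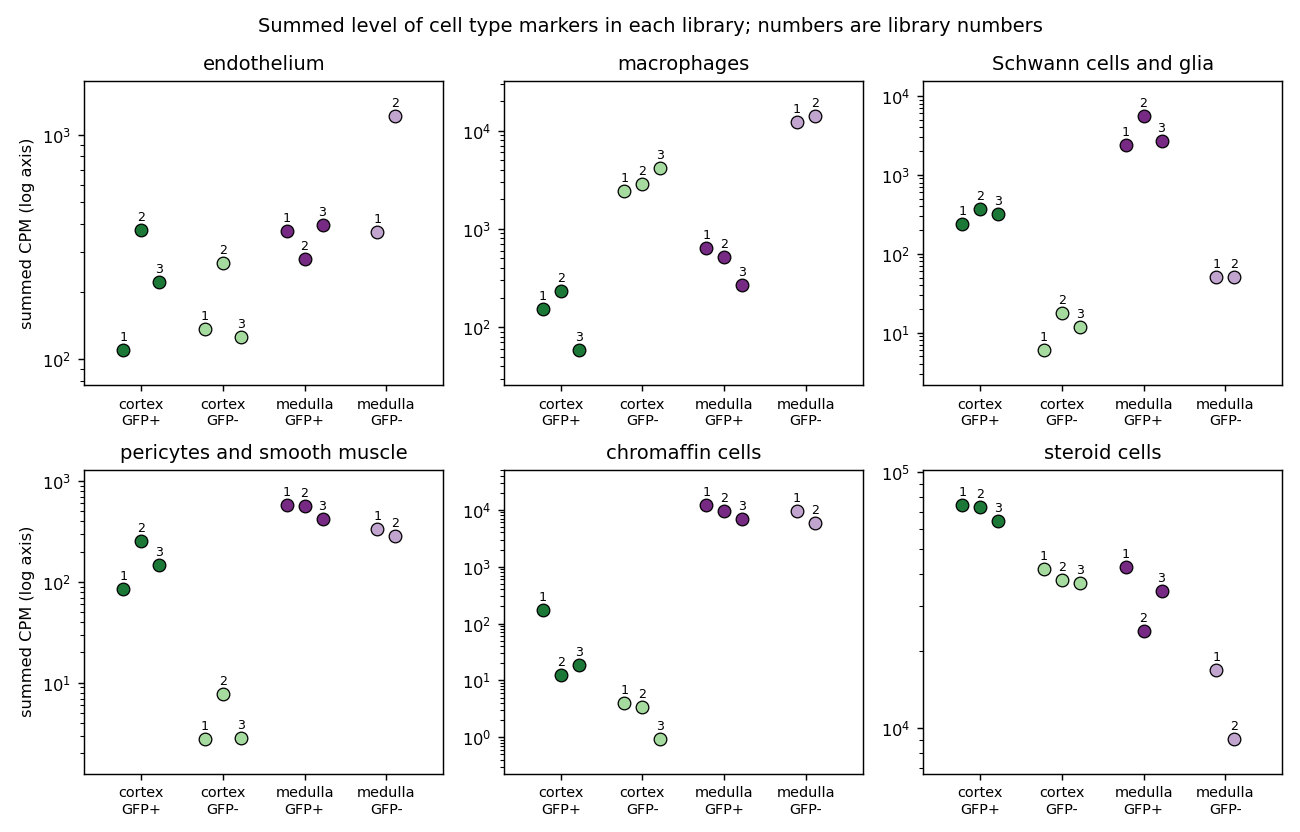
Summed CPM (log axis) of the markers of 6 cell types in each of the 11 libraries, numbered within their group. Macrophage sums separate the gates in both tissues, as do glial sums in the opposite direction, while endothelial sums do not, and medullary GFP-negative library 2 is highest with 1211 CPM.

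The authors' deposited tables gave the same direction for all 9 genes in both gates but fewer calls. In the authors' deposited table for the cortex the log2 fold change was -1.75 for Itga6 (adjusted p = 0.111) and 1.56 for Ly6a (adjusted p = 1), and none of the 9 genes had an adjusted p below 0.05. In the authors' deposited table for the medulla none of the 9 passed either, with -1.58 for Itga6 (adjusted p = 0.325) and -0.90 for Cd44 (adjusted p = 1). Between GFP-positive cells, 1 of 9 passed in the authors' deposited table, Thy1 at -5.46 (adjusted p = 3.62e-12). For all 25509 genes of each table the deposited statistic matched, within 0.001, a test of whether the log2 change exceeds 1 in size, a stricter question than the test used here.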

How the data were processed

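The authors deposited whole-number counts of reads per gene for 11 libraries, not normalized, from cDNA amplified by 17 cycles of PCR, per the labels' protocols. The submitters' processing notes name the mouse build mm10, and as tools featureCounts 1.6.0, GSNAP, DESeq2 1.18.1, DESeq and bcl2fastq 2.19.1. How reads with several matches were counted is not given in the sources used here. The authors also deposited comparison tables with log2 fold changes, p-values, a test statistic and weight (scores), GC content in percent and a normalized signal per library. The deposited signal served as an alternative scale of levels.

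Genes were joined by identifier, with symbols from the deposited tables, and 92 spike-ins with 10 counts in all were left out. Tests used edgeR 4.0.16 in R 4.3.3 (glmQLFit and glmQLFTest), with low genes removed by filterByExpr over the groups and TMM scaling. The fit of 4 groups used all 11 libraries, with 7 residual degrees of freedom, and the common biological coefficient of variation was 0.479. In each comparison the Benjamini-Hochberg adjustment ran over 20893 genes, with a threshold of 0.05. CPM use TMM-scaled library sizes. The script was tested on simulated data with a smaller spread between libraries than these data have. That checks the code and does not measure how many differences are found here. Libraries of a group differed by more than sampling noise (chi-square per degree of freedom 27.0 to 94.1).

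The 9 genes, the lists and the alternatives were chosen with earlier results of these data known. Named besides the 9 are, per list, up to 3 called genes with the lowest adjusted p in either gate comparison and the most abundant gene, plus the 2 genes most like each of the 9, and Nes. Ly6c1, Gm6212, Gm16401, Tpsb2, Cma1, Fcer1a, Mcpt4, Tpsab1, Ms4a2, Hdc, Cd2 and Ngfr were named afterwards. Alternatives were other scalings, no filter, DESeq2 1.42.0, limma-voom (limma 3.58.1), age or replicate number as a term, only the groups compared, and leaving out each library.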

Additional observations from a re-analysis of the deposited data

Results flagged for a closer look

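The gate difference of Ly6a in the cortex exceeded that in the medulla by 2.89 on the log2 scale (SE 0.578, edgeR adjusted p = 0.0401), and this test of the difference itself is what singled it out. All 3 cortical GFP-positive libraries lay above all 3 cortical GFP-negative libraries, and all 3 medullary GFP-positive libraries lay below both medullary GFP-negative libraries. The result passed in 6 of 18 alternatives, with adjusted p from 0.000128 to 0.148.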

How the results depend on the processing

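Of the settings other than leaving out a library, the number of the 9 genes called changed by over 1.5 times in these: in the cortex 4 without a filter, 5 with DESeq2 and 4 with only the groups compared, against 2; in the medulla 6 with DESeq2, against 2; and for the difference of the gates between tissues 0 with limma-voom, with age as a term and with the replicate block, against 1. For Ly6a that difference was 2.72, 2.503 and 2.65 in those 3 fits (adjusted p = 0.0512, 0.114 and 0.0641). Calls over all genes in the same cortical settings were 3038, 4578 and 3909, against 3078, the first 2 from fits given a wider set of genes. With DESeq2 in the medulla they were 5848, against 4461, and in the 3 fits of the difference between tissues 310, 93 and 176, against 337. Leaving out a library gave 1 to 3 calls in the cortex, 2 to 4 in the medulla, 3 to 6 averaged over both, 2 to 4 between GFP-positive cells, 2 to 5 between GFP-negative cells and 0 to 1 for the difference between tissues. Over all genes it gave, in the same order, 1959 to 3252, 2956 to 4390, 5125 to 6010, 2006 to 3370, 1411 to 4045 and 56 to 489 calls. The causes were not tested.

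Itga6 kept its call in all alternatives of both gates and of their mean, Cd44 in those of the medulla and of the mean, Msi2 in those of the mean and between GFP-positive cells, and Thy1 in those between tissues. Between GFP-positive cells Itga6 lost its call with age as a term (0.85, adjusted p = 0.0531), with only the groups compared (0.84, adjusted p = 0.0575), and without cortical GFP-positive library 2 or 3 or medullary GFP-positive library 1 or 3 (adjusted p up to 0.0964), and Cd44 without library 1 or 2 of either GFP-positive group (up to 0.0808). Between GFP-negative cells Itga6 lost it without cortical library 1 or medullary library 1 or 2 (up to 0.0974), and Ly6a and Msi2 without medullary library 2 (0.0718 and 0.0824). Uncalled values changed sign with limma-voom for Msi1 between GFP-negative cells (-0.0004) and for Prom1 in the difference between tissues (0.77, also 0.77 with the replicate block). Leaving out a library gave both signs for the difference between tissues of Cd24a (-0.25 to 0.65), Itga6 (-0.40 to 0.14), Kit (-0.85 to 4.29), Msi2 (-0.35 to 0.13) and Prom1 (-0.86 to 0.68), for Kit between GFP-negative (-5.12 to 0.02) and GFP-positive cells (-1.32 to 0.18) and in the medulla (-0.46 to 3.86), for Thy1 in the medulla (-0.27 to 0.62), for Ly6a averaged over both tissues (-0.076 to 0.56) and for Msi1 between GFP-negative cells (-0.30 to 0.38).

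Whether same-numbered libraries share a pool of mice is not known from the labels. Those of the cortex share an age, while medullary GFP-positive library 2 came from younger mice than the other libraries numbered 2. Deviations of all same-numbered libraries, these included, correlated by -0.012 to 0.122, and the libraries were not treated as paired. Pairs that differ in age gave 0.045, 0.009 and -0.012, and pairs of the same age 0.009 to 0.122. No pair is known to share a pool, so the range cannot show that no libraries do. With the replicate block 6 of 9 were called averaged over both tissues, Thy1 being added (adjusted p = 0.0446), beside 5731 calls over all genes, against 6269 without it. Counts of the 9 genes called were otherwise those of the fit without it except for the difference between tissues. Over all genes the difference between tissues gave 337 calls, against 1577 with DESeq2, 93 with age as a term, 176 with the replicate block and 56 to 489 without 1 library. Leaving out 1 library also gave as few as 1959 of 3078 calls in the cortex, 2956 of 4461 in the medulla, 2006 of 3236 between GFP-positive cells and 1411 of 3892 between GFP-negative cells. Depth limits Prom1, Thy1 and Kit, which had 2 to 20 counts in some groups.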
